A study of Mus musculus with 2 samples.

Results

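Transcripts of 9 transcription factor genes with known roles in amacrine cells were followed through retinas with and without the TET enzymes. The genes were Tfap2a, Tfap2b, Tfap2c, Pax6, Meis2, Lhx9, Barhl2, Ebf1 and Ebf3, chosen by name and matched exactly to the gene symbols of the deposited table. All 9 were found, each as 1 of the 32227 genes counted.

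Amacrine cells are the inhibitory interneurons of the inner retina, and most release GABA or glycine. During development, transcription factors first bring retinal progenitors and their daughters to the amacrine fate and later divide amacrine cells into subtypes. The AP-2 proteins encoded by Tfap2a and Tfap2b act in amacrine and horizontal cells downstream of the fate determinant Ptf1a, while the paired and homeodomain factor Pax6 works in progenitors and stays on in mature amacrine cells, ganglion cells and Müller glia. Meis2 (a TALE homeodomain factor of GABAergic amacrine cells), Lhx9 (a LIM homeodomain factor), Barhl2 (a homeodomain factor of amacrine and ganglion cell subtypes) and the helix-loop-helix factors Ebf1 and Ebf3 act later, in subtype identity.

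Nuclei from whole retinas of C57 BL/6J mice, taken on postnatal day 21, were sequenced for RNA one by one, in 1 Cre- library (7357 nuclei) and 1 Tet tcKO library (6766 nuclei). The Cre- animals carried no Cre transgene and are labelled WT, and the Tet tcKO animals carried floxed Tet1, Tet2 and Tet3 with a Chx10-Cre-GFP transgene, which is active in retinal progenitor cells. This transgene can act in a mosaic, so some Tet tcKO nuclei may have kept the genes. The paper in-crossed Cre-positive animals to reduce this, and reported in bulk RNA a lower percentage of spliced-in reads of the floxed Tet exons. Each library joined 2 pools of dissociated retinas, and which pool a nucleus came from is not known here. A single library stood for each genotype, so no test between genotypes was possible, and every interval below is an exact 95% interval that covers counting error only.

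Levels are given as CPM, the UMIs (counted transcript molecules) of a gene per 1000000 UMIs of the same nuclei. Where 2 values stand together, Cre- comes first and Tet tcKO second. The amacrine class of the authors' annotation held 403 Cre- nuclei with 558558 UMIs and 1043 Tet tcKO nuclei with 2342398 UMIs, which was 5.48% (4.97 to 6.02) and 15.4% (14.6 to 16.3) of nuclei. Median depth in these nuclei was 1065 and 1736 UMIs. The shallowest nucleus had 502 and 549 UMIs and the deepest 9957 and 9981, and 1 barcode was shared by both libraries. The 3 targeted genes were counted over whole genes and not by exon, and such levels test neither deletion nor labelling. Amacrine nuclei held Tet1 at 78.8 and 74.7 CPM, Tet2 at 100.3 and 117 CPM, and Tet3 at 150.4 and 149 CPM.

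The annotated amacrine nuclei were checked against 7 transmitter genes, of GABA, glycine or acetylcholine. Gad1, which makes GABA, stood at 174 CPM in Cre- amacrine nuclei against 55.0 CPM in all other Cre- nuclei, and at 164 against 68.1 CPM in Tet tcKO. Chat, which makes acetylcholine in starburst cells, stood at 71.6 against 8.40 CPM in Cre- and 46.5 against 8.91 CPM in Tet tcKO. Gad2, which also makes GABA, was higher inside the class in both libraries too, and the glycine transporter gene Slc6a9 was higher inside it in Cre- (log2 0.43) and lower in Tet tcKO (log2 -0.48). The vesicular GABA transporter gene Slc32a1 was at about the same level inside and outside the class, at 17.9 against 16.3 CPM in Cre- and 25.6 against 29.4 CPM in Tet tcKO. Slc18a3, the vesicular acetylcholine transporter gene, had 0 UMIs in Cre- and 3 UMIs in Tet tcKO amacrine nuclei. The 7 markers summed to 838 and 732 CPM in amacrine nuclei, against 352 and 483 CPM in rods and cones. Transcripts of other types were also counted in amacrine nuclei and moved with genotype. The 8 rod markers summed to 2746 and 1174 CPM in amacrine nuclei and the 8 cone markers to 555 and 1434 CPM. The 10 RGC markers summed to 292 and 170.3 CPM, the 9 bipolar markers to 1400.0 and 991 CPM and the 7 Müller markers to 599.8 and 401 CPM. The part of these transcripts in the results below was not tested, except where a value is given.

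In GRCm39, Tfap2a lies on the minus strand of chromosome 13 from 40868778 to 40891852, Tfap2b on the plus strand of chromosome 1 from 19279138 to 19309069, and Tfap2c on the plus strand of chromosome 2 from 172391321 to 172400542. Pax6 lies on the plus strand of chromosome 2 from 105499234 to 105530952, and Meis2 on the minus strand of that chromosome from 115693062 to 115896341. Lhx9 lies on the minus strand of chromosome 1 from 138752924 to 138776341, and Barhl2 on the minus strand of chromosome 5 from 106600389 to 106606336. Ebf1 lies on the plus strand of chromosome 11 from 44508138 to 44898918, and Ebf3 on the minus strand of chromosome 7 from 136795402 to 136916218. Of these, 6 genes overlap at least 1 annotated gene on the opposite strand, and none overlaps a gene on its own strand. The sources used here do not say whether counting used strand.

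TET enzymes oxidise methylated cytosine, which in mammals lies mostly in CpG dinucleotides, so the letters just upstream of the members' starts are shown for the windows with the fewest and the most CpG. RefSeq starts (GRCm38.p6, which is not the build of the counts) were held for 8 of the members, with 11 windows of 250 bases in all. These windows held between 4 and 43 CpG, with a median of 10, beside a median of 6 over 32851 windows of all genes. The capitals mark CpG, and each window ends at the base before the start.
Lhx9, chr1:138842445-138842694, minus strand: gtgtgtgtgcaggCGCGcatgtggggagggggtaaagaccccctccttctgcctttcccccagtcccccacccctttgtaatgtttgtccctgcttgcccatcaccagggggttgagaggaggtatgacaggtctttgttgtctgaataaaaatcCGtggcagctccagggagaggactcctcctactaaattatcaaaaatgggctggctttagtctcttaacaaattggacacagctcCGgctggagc
Ebf3, chr7:137314446-137314695, minus strand: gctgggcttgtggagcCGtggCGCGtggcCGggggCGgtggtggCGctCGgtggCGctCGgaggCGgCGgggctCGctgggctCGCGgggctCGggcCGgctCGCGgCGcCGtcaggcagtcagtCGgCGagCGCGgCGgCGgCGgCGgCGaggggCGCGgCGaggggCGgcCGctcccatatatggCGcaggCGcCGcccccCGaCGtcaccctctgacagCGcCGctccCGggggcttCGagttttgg
The Lhx9 window held 4 CpG, and 37.8% of all windows held fewer. The Ebf3 window held 43, and 99.3% of all windows held fewer. DNA methylation was not measured in these libraries. Each window was also searched on both strands for AP-2, EBF and MEIS motifs, from the members' own families, and apart from these for the E-box. GCCNNNGGC, an AP-2 site, was found in 2 of the 11 windows (1 of Pax6, 1 of Ebf3) and in 13.7% of all windows. The EBF motif was found in 0 of the 11 and in 0.779% of all windows. TGACAG, a MEIS site, was found in 3 of the 11 (1 each of Pax6, Lhx9 and Ebf3) and in 15.9% of all windows, and CANNTG, the E-box, in 5 of the 11 and in 66.2%. A match is a description of letters and not a binding site.

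The question taken first was where in the retina each factor was found. The classes were drawn from these same counts, so the order of classes is a description. Rods and cones were pooled, because the Tet tcKO library held 6 rod-annotated nuclei.

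The AP-2 genes divided the inhibitory interneurons. Tfap2a stood highest in amacrine nuclei, at 208 CPM (172 to 249) in Cre- and 255 CPM (235 to 276) in Tet tcKO. Bipolar nuclei came next, at 70.8 and 86.2 CPM, and rods and cones stood at 38.4 and 57.8 CPM. Horizontal nuclei, which are the other inhibitory interneurons of the retina, held 3 Tfap2a UMIs in Cre- and 0 in Tet tcKO. The amacrine level was 2.93-fold that of bipolar nuclei in Cre- and 2.96-fold in Tet tcKO, and 51.1-fold and 28.6-fold that of retinal ganglion cells (RGCs). Single bipolar and amacrine clusters overlapped in Tet tcKO. Tfap2a ranged there from 8.79 to 158 CPM over 6 bipolar clusters and from 128 to 343 CPM over 5 amacrine clusters. Tfap2b went the other way and stood highest in horizontal nuclei, at 821 CPM (686 to 975) in Cre- and 865 CPM (700.4 to 1056) in Tet tcKO. Amacrine nuclei were second, at 537 CPM (478 to 601) and 618 CPM (587 to 651), below horizontal nuclei by a log2 ratio of -0.61 (-0.91 to -0.30) and -0.48 (-0.78 to -0.17). RGCs held least, at 43.9 and 53.4 CPM. Both kinds of interneuron thus held Tfap2b, while Tfap2a was lower in horizontal nuclei (amacrine over horizontal in Cre-, log2 3.45, 1.87 to 5.75). Tfap2c, the third AP-2 gene, was scarce, with 16 and 17 UMIs in amacrine nuclei. In Cre- its amacrine level of 28.6 CPM (16.4 to 46.5) was 3.19-fold that of rods and cones (log2 1.67, 0.79 to 2.48). In Tet tcKO the level of 7.26 CPM (4.23 to 11.6) did not differ from rods and cones beyond counting error (log2 0.54, -0.38 to 1.40).

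Pax6 was counted in every class at a substantial level. It stood at 825 CPM (752 to 904) in Cre- and 1042 CPM (1001 to 1084) in Tet tcKO amacrine nuclei. Müller glia were at least as high, at 869 CPM (750.4 to 1000.2) and 1126 CPM (962 to 1310), and the log2 ratio of amacrine nuclei over Müller glia was -0.07 (-0.32 to 0.18) and -0.11 (-0.34 to 0.12). Amacrine and glial levels could not be ordered. RGCs stood at 458 and 547 CPM, horizontal nuclei at 493 and 721 CPM, and rods and cones at 369 and 585 CPM. Meis2 was clearer. Amacrine nuclei stood at 627 CPM (563 to 696) in Cre- and 850.0 CPM (813 to 888) in Tet tcKO, above the next class in both libraries, and horizontal nuclei were lowest, with 10 and 9 UMIs. The amacrine level of Meis2 was 9.92-fold that of horizontal nuclei in Cre- (log2 3.31, 2.41 to 4.38) and 10.5-fold in Tet tcKO (log2 3.39, 2.46 to 4.52).

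Lhx9 was low and still highest in amacrine nuclei in both libraries, at 48.3 CPM (31.9 to 70.3; 27 UMIs) in Cre- and 61.5 CPM (51.8 to 72.4; 144 UMIs) in Tet tcKO. Bipolar nuclei came next, at 14.2 and 20.2 CPM, and the amacrine level was 3.41-fold and 3.04-fold theirs. By cluster in Tet tcKO, Lhx9 ranged from 0 to 42.3 CPM in bipolar and from 7.75 to 181 CPM in amacrine nuclei. Barhl2 had few UMIs everywhere, with 7 in Cre- and 38 in Tet tcKO amacrine nuclei (12.5 and 16.2 CPM). Its level in amacrine nuclei did not differ from that in RGCs beyond counting error in either library, and no neighbouring pair of classes could be ordered. In Tet tcKO it stood above rods and cones (log2 0.72, 0.11 to 1.30).

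The EBF genes went against the name of the group. Ebf1 stood highest in RGCs, at 1181 CPM (1121 to 1243) in Cre- and 1192 CPM (1146 to 1239) in Tet tcKO, and Ebf3 did too, at 287 CPM (258 to 318) and 278 CPM (257 to 302). Amacrine nuclei stood at 152 and 96.1 CPM for Ebf1 and at 53.7 and 55.9 CPM for Ebf3. The Ebf1 level in amacrine nuclei was below that of rods and cones, by a log2 ratio of -0.40 (-0.73 to -0.08) and -0.55 (-0.76 to -0.34). For Ebf3 the same ratio was -0.35 (-0.93 to 0.19) and -0.07 (-0.36 to 0.21). Over the amacrine class as a whole neither EBF gene stood above the photoreceptor level, although Ebf3 did in cluster 23 of Tet tcKO (222 nuclei), at 109.5 CPM (83.0 to 142) against 58.7 CPM (53.3 to 64.5). In RGCs Ebf1 was 5.89-fold and 8.47-fold the level of rods and cones. The pattern was held by every RGC cluster of at least 20 nuclei, where Ebf1 ranged from 859 to 1559 CPM over 3 Cre- clusters and from 763 to 1464 CPM over 4 Tet tcKO clusters.

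**Figure D1:**
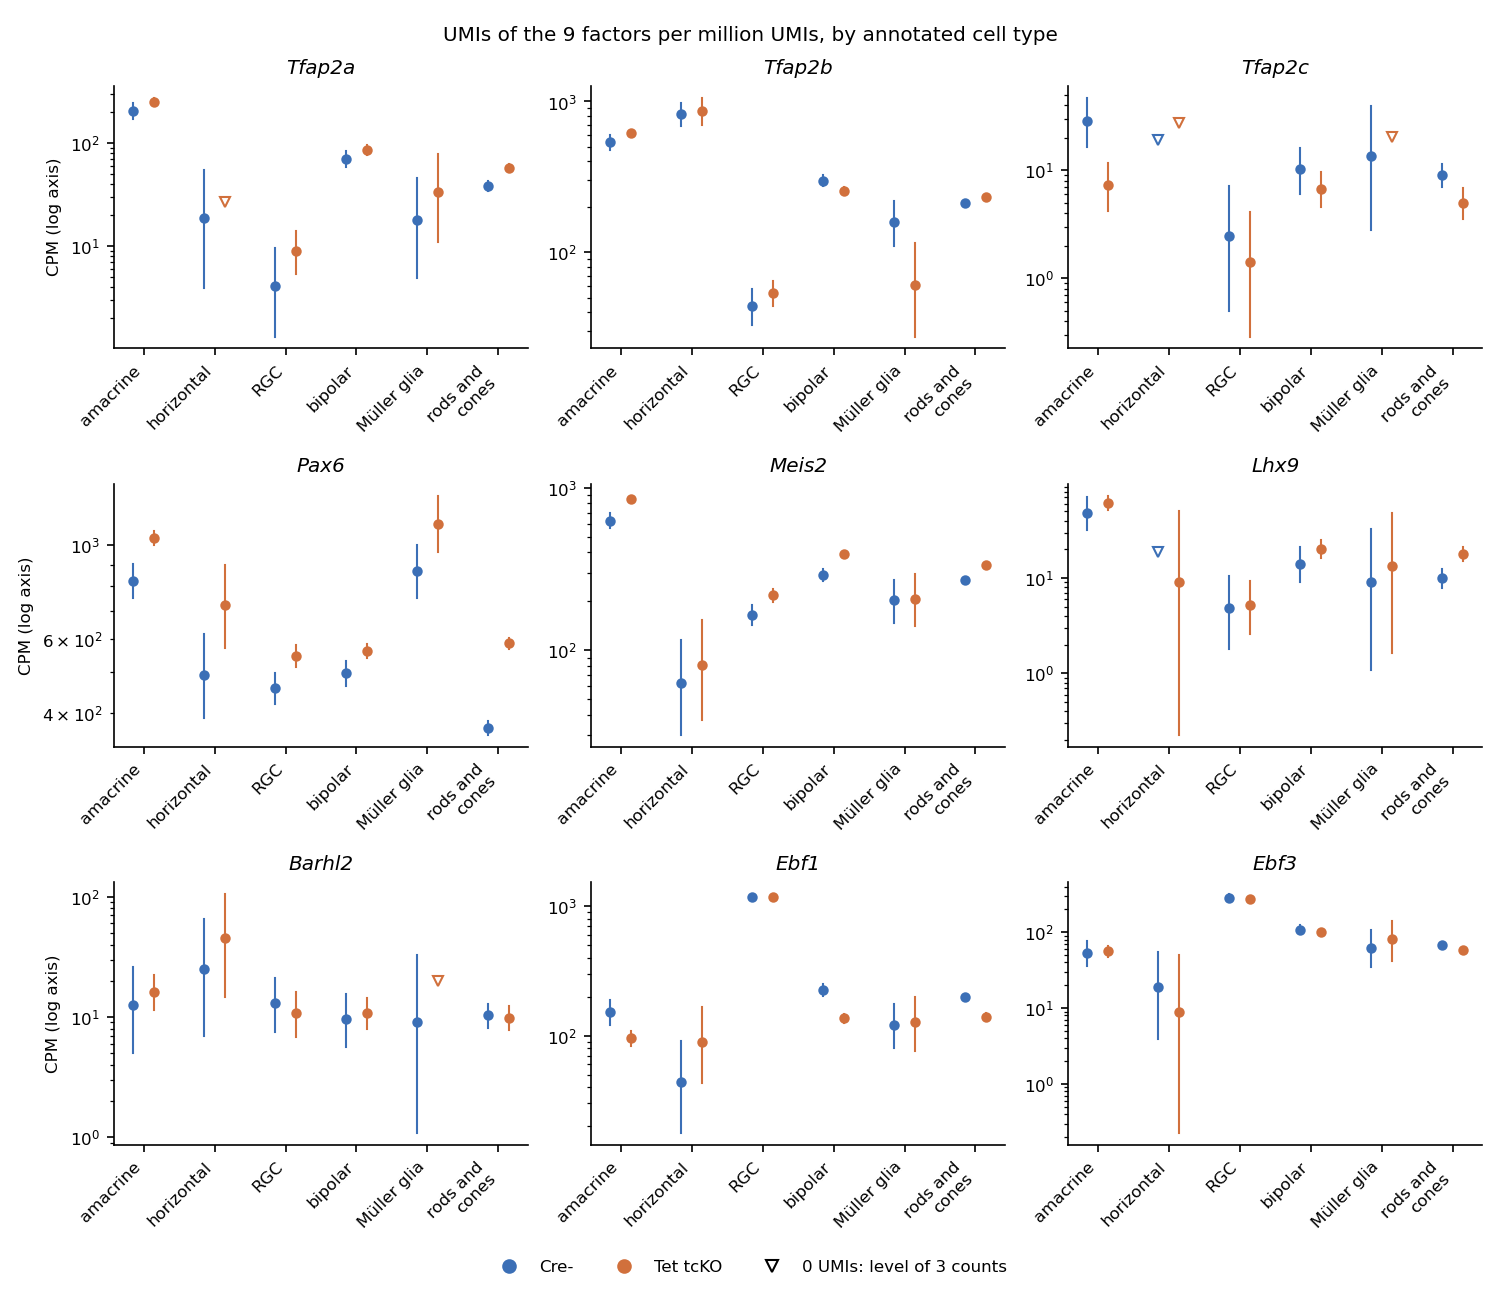
Level of each factor in CPM (log axis, with its own range in each panel) by annotated cell type in the Cre- and Tet tcKO libraries. Points are levels with exact 95% Poisson intervals, and open triangles mark the level of 3 counts where 0 UMIs were found. Tfap2a, Meis2 and Lhx9 are highest in amacrine nuclei, Tfap2b in horizontal nuclei, and Ebf1 and Ebf3 in RGCs, in both libraries.

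Much of what was counted for these genes lay outside the amacrine class. In Cre-, amacrine nuclei held 21.3% of Tfap2a UMIs, 11.3% of Tfap2b UMIs, 9.28% of Pax6 UMIs and 2.44% of Ebf1 UMIs, and 4.85% of all UMIs. In Tet tcKO they held 41.7%, 32.1%, 22.8% and 5.06% of these, and 14.1% of all UMIs. Rods and cones held 56.3% of Pax6 UMIs in Cre- and 40.6% in Tet tcKO. Over 15 Cre- rod clusters Pax6 ranged from 0 to 414 CPM, with a median of 367 CPM. The cluster at 0, number 45, held 18728 UMIs in 22 nuclei, and a count of 0 there allows up to 160.2 CPM. The authors had run a correction for ambient RNA before deposit, and how much of the photoreceptor signal was free RNA was not tested. The levels outside the amacrine class were unequal, since the Tfap2b level in RGCs was below that in rods and cones by a log2 ratio of -2.27 (-2.69 to -1.88) and -2.12 (-2.40 to -1.84).

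**Figure D2:**
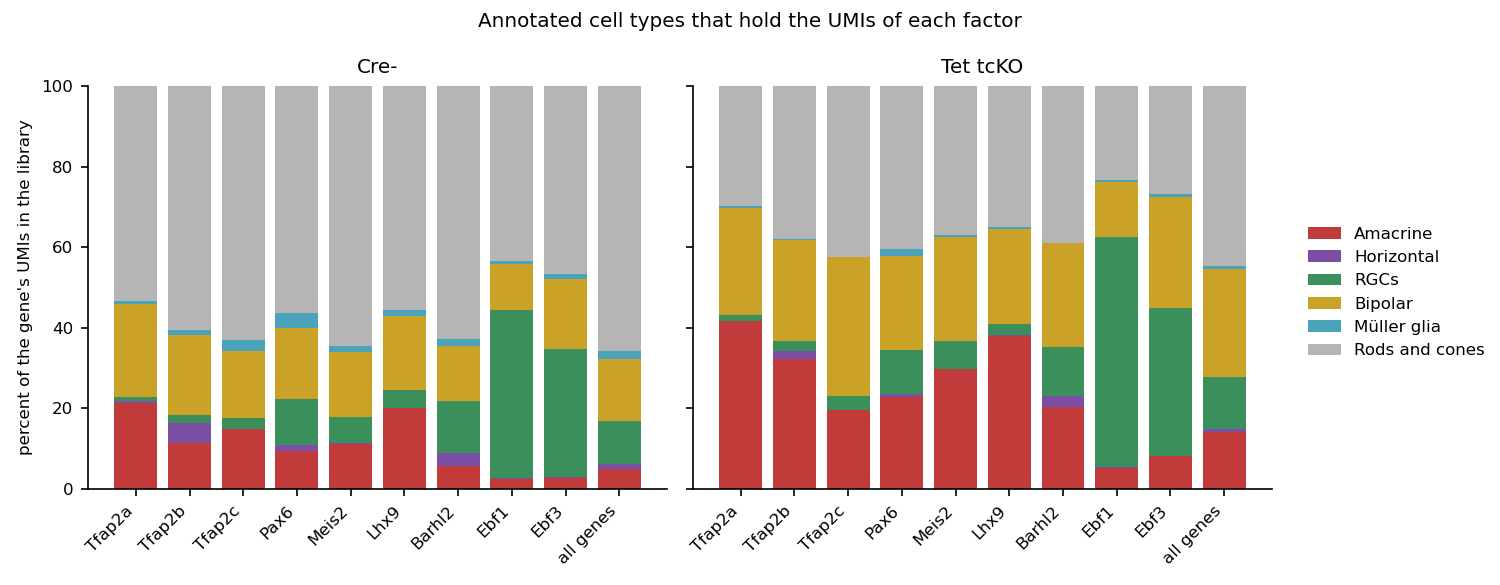
Percent of each factor's UMIs (stacked bars, adding to 100) that were counted in each annotated cell type, with all genes together as the last bar, for Cre- and Tet tcKO. RGCs hold 41.6% of Ebf1 UMIs in Cre- and 57.2% in Tet tcKO, while amacrine nuclei hold 2.44% and 5.06%.

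The share of nuclei with a UMI was compared after each nucleus was thinned to 500 UMIs. Tfap2b was found in 26.8% (22.5 to 31.4) of Cre- and 24.4% (21.8 to 27.1) of Tet tcKO amacrine nuclei. Before thinning the shares were 45.2% and 54.9%. In RGCs the thinned shares were 2.82% and 2.84%, at median depths of 1601 and 2381 UMIs, and in rods and cones 10.6% and 11.2%, at 1046 and 1714 UMIs. Pax6 was found in 32.8% (28.2 to 37.6) and 39.0% (36.0 to 42.1) of amacrine nuclei after thinning (59.1% and 81.9% before), against 16.8% and 24.8% of rods and cones. Meis2 was found in 27.5% (23.2 to 32.2) and 28.4% (25.7 to 31.2) of amacrine nuclei (47.6% and 61.8% before), against 12.3% and 16.8% of rods and cones. The amacrine shares therefore stood above those of photoreceptors for these 3 genes in both libraries. Between genotypes the amacrine intervals overlapped for each of them at 500 UMIs. Thinning to 1000 UMIs left out 178 Cre- and 54 Tet tcKO amacrine nuclei. The Pax6 intervals did not overlap there, at 51.1% (44.4 to 57.8) and 65.2% (62.2 to 68.2), while those of Tfap2b and Meis2 did.

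Whether 1 nucleus held several factors was asked in the same thinned nuclei. Of Cre- amacrine nuclei with a Tfap2a UMI, 26.8% (14.2 to 42.9) also had a Tfap2b UMI, against 26.8% (22.3 to 31.7) of those without. In Tet tcKO the shares were 25.0% (17.4 to 33.9) and 24.3% (21.5 to 27.2). The pair Pax6 and Meis2 gave 20.5% (13.9 to 28.3) against 31.0% (25.5 to 36.9) in Cre- and 29.0% (24.6 to 33.7) against 28.0% (24.5 to 31.7) in Tet tcKO. At this depth the intervals with and without the first gene overlapped for each of the 6 pairs of Tfap2a, Tfap2b, Pax6 and Meis2, in both libraries. Overlap does not exclude a difference, and in Cre- Meis2 was found less often with Pax6 than without it.

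Of the 9 members, 7 stood higher and 2 (Tfap2c and Ebf1) lower in Tet tcKO amacrine nuclei, and 1 differed by 2-fold or more. This was Tfap2c, with 28.6 and 7.26 CPM, a log2 ratio (Tet tcKO over Cre-) of -1.98 (-3.05 to -0.90). No member was higher by 2-fold or more, and all 9 passed the minimum of 10 CPM in at least 1 library. Among 10831 genes at 10 CPM or more, 6.44% were higher by 2-fold or more and 6.44% lower. The Tfap2c ratio rests on 16 and 17 UMIs, and its interval reaches to less than 2-fold. It kept its direction under the 12 alternatives tried, between -3.12 and -1.21. The share of amacrine nuclei with a Tfap2c UMI was 2.48% (1.20 to 4.52) and 0.575% (0.211 to 1.25) after thinning to 500 UMIs. After thinning to 1000 UMIs, which left out 178 Cre- and 54 Tet tcKO nuclei, it was 0.889% (0.108 to 3.17) and 1.11% (0.556 to 1.98), so the order was not kept. In rods and cones Tfap2c was also lower, at 8.98 CPM (68 UMIs) and 4.99 CPM (37 UMIs), log2 -0.85 (-1.47 to -0.25), and in cones alone the ratio was -0.44 (-1.63 to 0.97).

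The other AP-2 genes, Pax6 and Meis2 were slightly higher in Tet tcKO amacrine nuclei. Tfap2a had 116 and 597 UMIs (208 and 255 CPM), log2 0.30 (0.01 to 0.60), and Tfap2b had 300 and 1448 UMIs (537 and 618 CPM), log2 0.20 (0.02 to 0.39). Pax6 had 461 and 2441 UMIs (825 and 1042 CPM), log2 0.34 (0.19 to 0.48), and Meis2 had 350 and 1991 UMIs (627 and 850.0 CPM), log2 0.44 (0.28 to 0.61). The largest of these 4 differences was 1.36-fold (Meis2). Pax6, Meis2 and Tfap2b turned to the other direction when each gene was counted once per nucleus, at -0.079, -0.17 and -0.27. Such a count depends on depth, which differed between the libraries (medians of 1065 and 1736 UMIs in amacrine nuclei), and the part of depth was not tested. Scaling by TMM or median of ratios left the direction of Pax6, Meis2 and Tfap2b as it was. With cluster shares set equal in both libraries the Meis2 ratio was 0.054, and without cluster 12 it was 0.097, both outside the interval above. The Pax6 ratio was 0.50 with equal cluster shares, above its interval, and 0.30 without cluster 12, within it. When the level of rods and cones of the same library was subtracted, an alternative added after the data were seen, 456 CPM of Pax6 were left in Cre- and 457 CPM in Tet tcKO (log2 0.0020), while Meis2 kept 356 and 515 CPM (log2 0.53). The whole level was subtracted, although the rod markers summed to 2746 and 1174 CPM in amacrine nuclei against 10805 and 5472.5 CPM in rods and cones. It left Ebf1 (-48.2 and -44.6 CPM) and Ebf3 (-14.5 and -2.78 CPM) below 0. The subtraction can thus take too much, and the part of photoreceptor RNA in the Pax6 difference was not tested.

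Lhx9, Barhl2 and Ebf3 did not differ beyond counting error, at 0.35 (-0.25 to 1.00), 0.37 (-0.81 to 1.78) and 0.06 (-0.52 to 0.68). Lhx9 turned to -0.14 among the 202 Cre- and 522 Tet tcKO nuclei at or under the median share of rod and cone marker UMIs. Ebf1 was lower, with 85 and 225 UMIs (152 and 96.1 CPM), log2 -0.66 (-1.03 to -0.29). Much of this difference rested on few nuclei. A single Cre- nucleus of cluster 12 held 23 of the 85 UMIs, and without the highest nucleus of each library the levels were 112 and 92.0 CPM and the log2 ratio -0.28. Without cluster 12 as a whole, an alternative added after the data were seen, it was -0.098. The 10 RGC markers also summed to less in Tet tcKO amacrine nuclei, at 292 and 170.3 CPM, and their part in the Ebf1 difference was not tested. The median over the 9 members was 0.30, beside -0.01 over the 10831 genes.

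**Figure D3:**
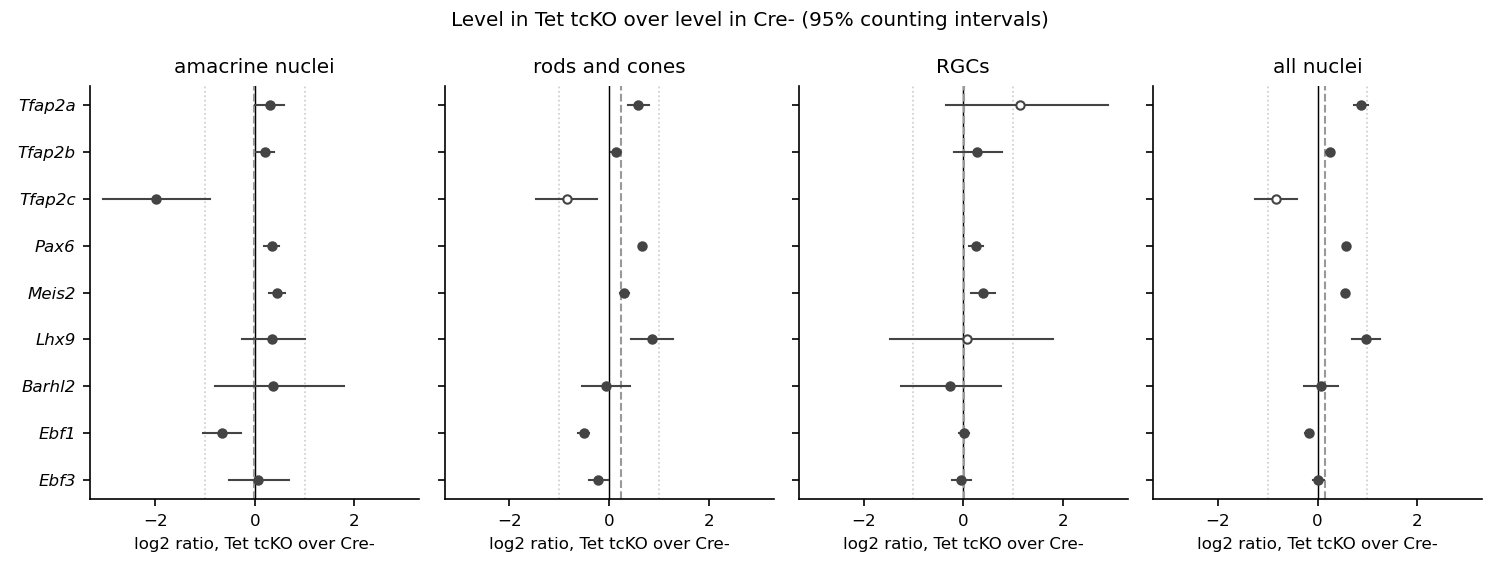
Log2 ratio of Tet tcKO over Cre- for each factor (points) with exact 95% conditional intervals (lines) in 4 populations. Open points are factors under 10 CPM in both libraries, dashed lines the median of all genes, and dotted lines 2-fold. Tfap2c in amacrine nuclei (-1.98) is the filled point farthest from 0.

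In RGCs, where the EBF genes were highest, both stood at nearly the same level in the 2 libraries. Ebf1 had 1453 and 2542 UMIs, log2 0.01 (-0.08 to 0.11), and Ebf3 had 353 and 594 UMIs, log2 -0.04 (-0.24 to 0.15). Of the 6 members at 10 CPM or more in RGCs, 0 differed by 2-fold or more, beside 3.53% of 10262 genes that were higher and 3.2% that were lower. Meis2 and Pax6 were slightly higher, at log2 ratios of 0.39 (0.15 to 0.64) and 0.25 (0.11 to 0.40). Horizontal nuclei were few (90 and 37), and Tfap2b there differed by a log2 ratio of 0.07 (-0.32 to 0.47).

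In rods and cones, the median of all genes was itself higher in Tet tcKO by a log2 ratio of 0.23. Against it, Lhx9 (0.86, 0.44 to 1.29), Pax6 (0.66, 0.60 to 0.73) and Tfap2a (0.59, 0.37 to 0.81) were higher, and Ebf1 (-0.51, -0.63 to -0.40) and Ebf3 (-0.22, -0.40 to -0.03) were lower. Pax6 stood at 369 CPM (2797 UMIs) in Cre- and 585 CPM (4337 UMIs) in Tet tcKO, and Lhx9 at 9.90 CPM (75 UMIs) and 17.9 CPM (133 UMIs). By annotation 5214 of the 5479 Cre- nuclei were rods and 3225 of the 3231 Tet tcKO nuclei were cones, so the pooled values mix genotype with photoreceptor type. In cones alone (265 and 3225 nuclei), a comparison added after the data were seen, Pax6 stood at 407 and 586 CPM (log2 0.52, 0.38 to 0.67). Lhx9 had 5 and 133 UMIs there (log2 1.89, 0.63 to 3.54), Tfap2a had 33 and 428 (log2 0.85, 0.34 to 1.41), and Ebf1 had 221 and 1041 (log2 -0.61, -0.82 to -0.39). These 4 genes thus kept the pooled direction within cones. Ebf3 (log2 0.19, -0.22 to 0.63) and Meis2 (log2 -0.06, -0.22 to 0.10) did not differ beyond counting error in cones and lay on the other side of 0 from their pooled values. The cones of the 2 libraries fell in different clusters, with 264 of the 265 Cre- cones in cluster 11.

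Over all nuclei, 0 of the 8 members at 10 CPM or more differed by 2-fold, beside 3.18% of 11158 genes that were higher by 2-fold or more and 2.48% that were lower. Lhx9 came closest, with 135 and 381 UMIs (log2 0.97, 0.68 to 1.26). Meis2 stood at 275 and 405 CPM, log2 0.56 (0.49 to 0.62), and Ebf1 at 303 and 268 CPM, log2 -0.18 (-0.24 to -0.11). The median of the 9 members was 0.24, beside 0.15 over all genes.

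Each library-wide difference was divided into a share part, from the shares of UMIs held by each class, and a level part, from levels within classes. For Tfap2b, 32.2 of the 42.0 CPM gained in Tet tcKO were share part, and amacrine nuclei alone added 53.5 CPM to it. Tfap2a gained 39.1 CPM, of which 20.1 were share part and 19.0 level part. For Pax6 the balance was the other way, with a gain of 212 CPM of which 42.5 were share part and 119 came from levels in rods and cones. Ebf1 fell by 35.3 CPM, with a share part of 20.2 CPM upward and a level part of -55.4 CPM. The larger amacrine share of the Tet tcKO library thus entered these sums differently from gene to gene. Fewer cells of a type and less RNA per cell cannot be told apart in such sums.

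**Figure D4:**
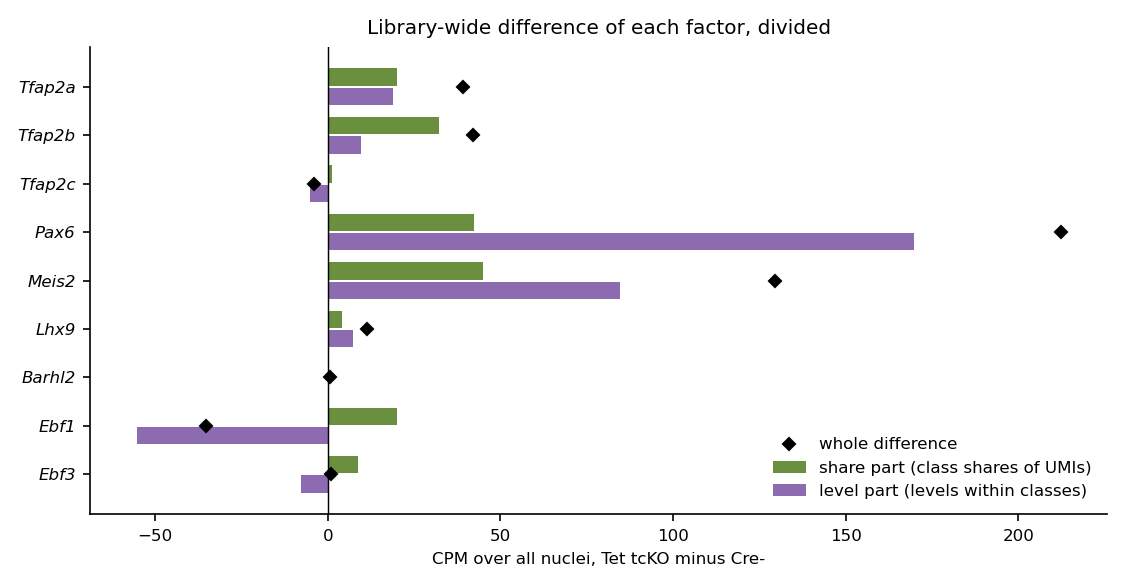
Difference between the libraries over all nuclei in CPM (Tet tcKO minus Cre-, diamonds) and its division into a share part and a level part (bars from 0) for each factor. Rods and cones are a single class here, so differences between them enter the level part. The level part is the longer bar for Pax6 (169.8 of 212 CPM) and the share part for Tfap2b (32.2 of 42.0 CPM).

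The amacrine class held 5 deposited clusters, which the libraries shared unequally. Cluster 27 held 256 Cre- and 21 Tet tcKO nuclei, cluster 12 held 14 and 357, cluster 24 held 35 and 321, cluster 23 held 26 and 222, and cluster 13 held 72 and 122. Cluster 13 was starburst-like by its transmitter genes, with Chat at 318 and 395 CPM and the choline transporter gene Slc5a7 at 181 and 422 CPM. Cluster 23 had Dab1 (known from AII amacrine cells) at 3962 CPM and the glycine transporter gene Slc6a9 at 639 CPM in its 26 Cre- nuclei, against 836 and 123 CPM in its 222 Tet tcKO nuclei. The same cluster number thus covered nuclei with different subtype genes in the 2 libraries. Clusters are compared by number below, and since they were drawn from these counts, their differences within a library are a description.

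Meis2 and Lhx9 set the starburst-like cluster apart. In the starburst-like cluster 13, Meis2 stood at 146 CPM (85.2 to 234) in Cre- and 93.0 CPM (59.6 to 138) in Tet tcKO, against 753 and 944 CPM in the other amacrine nuclei, which is 5.15-fold and 10.1-fold lower. Lhx9 had 1 and 2 UMIs in that cluster, against 58.8 and 68.1 CPM in the other amacrine nuclei. Both libraries thus placed the starburst-like nuclei lowest for both genes. In Tet tcKO the highest Meis2 level was that of cluster 12, at 1155 CPM. Among the Cre- clusters of at least 20 nuclei it was that of cluster 24, at 1196 CPM, and the 14 Cre- nuclei of cluster 12 held 68 Meis2 UMIs.

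Pax6 ranged from 708 to 1086 CPM over the 4 Cre- clusters of at least 20 nuclei and from 821 to 1304 CPM over the 5 Tet tcKO clusters. In Tet tcKO it stood at 821 CPM (715 to 940) in cluster 13 and at 1273 CPM (1173 to 1379) in cluster 24, intervals that do not overlap. Tfap2a was lowest in cluster 13 in Tet tcKO, at 128 CPM (88.0 to 180) against 271 CPM in the other amacrine nuclei, and stood at 138 against 226 CPM in Cre-. Ebf1 and Ebf3 were highest in cluster 23 in Tet tcKO among the 4 clusters with over 100 nuclei, at 144 CPM (113 to 181) and 109.5 CPM (83.0 to 142). The 21 Tet tcKO nuclei of cluster 27 held 5 Ebf1 UMIs (181 CPM, 58.8 to 423) and 2 Ebf3 UMIs (72.4 CPM, 8.77 to 262).

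Within clusters, Tfap2b was higher in Tet tcKO beyond counting error in 3 of the 4 clusters with at least 20 nuclei in each library. In cluster 13 it had 49 and 232 UMIs (422 and 899 CPM), log2 1.09 (0.64 to 1.57). Of the 2 members with 50 UMIs or more in that cluster, Tfap2b was higher by 2-fold or more and Pax6 was not, at 714 and 821 CPM (log2 0.20, -0.17 to 0.59). Among 1450 genes with as many UMIs there, 8.48% were higher by 2-fold or more and 7.24% lower. In cluster 24 Tfap2b had 16 and 280 UMIs (269.6 and 596 CPM), log2 1.14 (0.42 to 1.97), and Ebf1 had 11 and 41 UMIs, log2 -1.09 (-2.07 to 0.02). These were the 2 of 5 members past 2-fold in cluster 24, beside 8.4% of 2202 genes that were higher and 2.5% that were lower. Tfap2b in cluster 27 was also higher in Tet tcKO (579.5 and 1014 CPM, log2 0.81, 0.18 to 1.39), and in cluster 23 it did not differ beyond counting error (799 and 671 CPM, log2 -0.25, -0.84 to 0.40). Between the clusters that held the most amacrine nuclei of each library, number 27 for Cre- and number 12 for Tet tcKO, Tfap2b stood at 579.5 and 524 CPM. With cluster shares set equal in both libraries, the Tfap2b ratio over the class was 0.50 on the log2 scale, in place of 0.20. Pax6 was higher in Tet tcKO beyond counting error in cluster 24 (708 and 1273 CPM, log2 0.85, 0.39 to 1.33). Its log2 ratio was 0.51 (-0.03 to 1.01) in cluster 27 and -0.19 (-0.70 to 0.35) in cluster 23. Meis2 had no common direction, with log2 ratios of 1.10 (0.16 to 2.24) in cluster 23 and -0.53 (-0.90 to -0.14) in cluster 24. Tfap2c UMIs were spread over clusters 27 (10), 24 (4) and 13 (2) in Cre- and over 4 clusters in Tet tcKO.

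**Figure D5:**
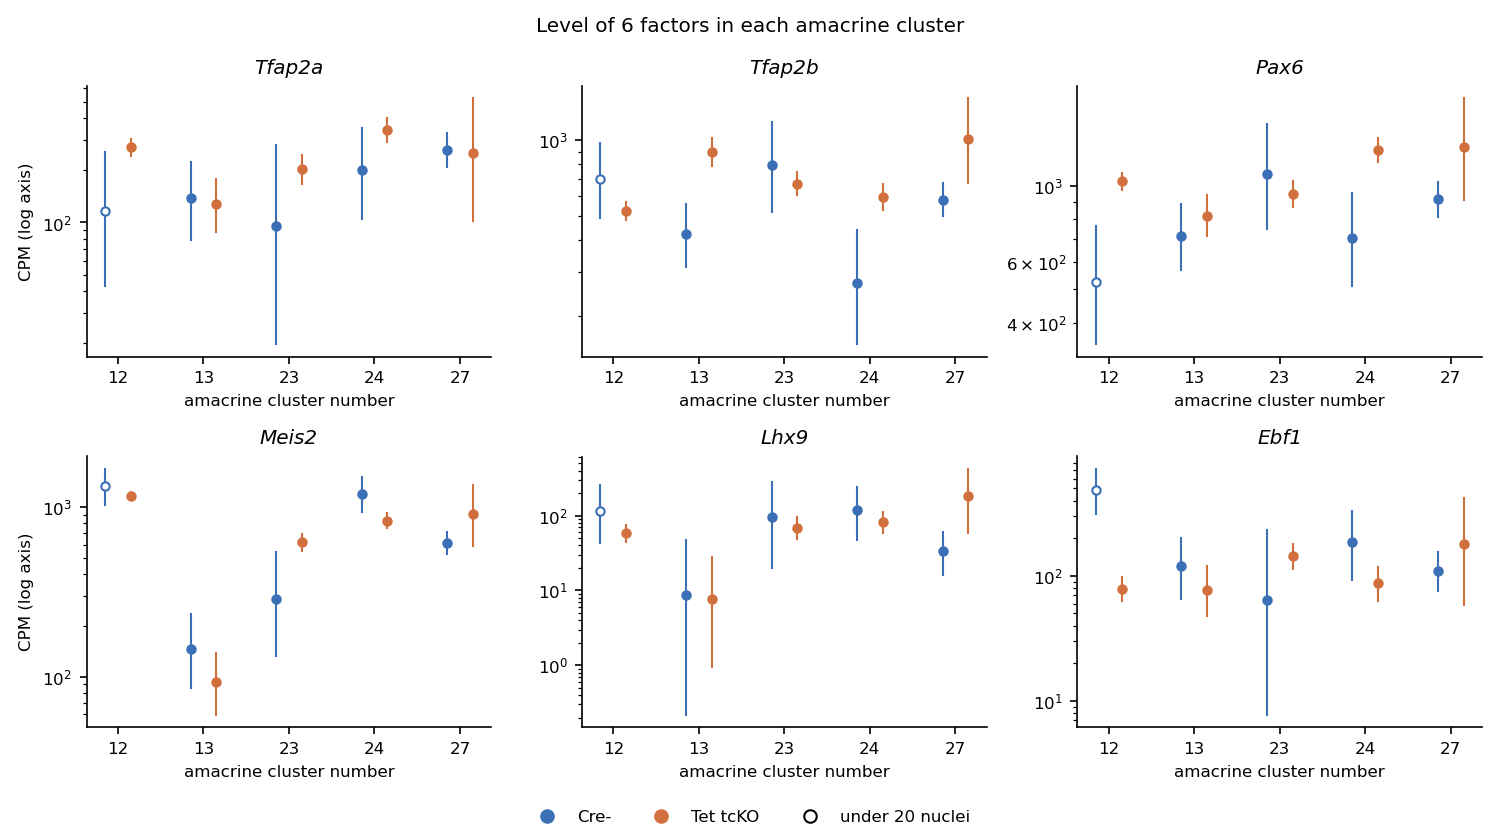
Level of 6 factors in CPM (log axis, with its own range in each panel) in the 5 amacrine clusters of the Cre- and Tet tcKO libraries, with exact 95% Poisson intervals. Open points are clusters with under 20 nuclei in that library. Meis2 and Lhx9 are lowest in cluster 13 in both libraries, and Tfap2b in cluster 13 is at 422 and 899 CPM.

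Genes of like pattern were named by the correlation of log2(CPM + 1) over 46 deposited clusters with at least 20 nuclei, both libraries pooled, among 8449 genes. These clusters share libraries and differ in depth, so the values are a description. Tfap2a was most like Tfap2b (r = 0.82), followed by Gad2 and Cpne5. Tfap2b was most like Gfra1 (0.87), Ptpro and Chst9, and Tfap2c like Tdrd9 (0.71), Ddx55 and Ccdc88b. Pax6 followed Tnik (0.93), Car11 and Cers5, and Meis2 followed Tacr1 (0.80), Klf12 and Gria1. Lhx9 was most like Gad2 (0.78), Olfm3 and Cacna1e, and Barhl2 like Faim2 (0.84), Abcc8 and Jakmip3. Ebf1 was most like Lrfn5 (0.92), Ebf3 (0.92) and Srgap1, and Ebf3 like Ebf1, Lrfn5 and Khdrbs2. Tfap2a, Ebf1 and Ebf3 thus each had a gene of their own family among their 3 most alike genes. Tfap2a and Ebf1 gave 0.12.

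Some of the genes on the opposite strand showed the amacrine pattern of their partner. Gm26688, which overlaps Tfap2a, stood at 44.8 and 53.8 CPM in amacrine nuclei against 6.76 and 7.86 CPM in all other nuclei, log2 ratios of 2.73 (2.01 to 3.40) and 2.77 (2.40 to 3.16). G630016G05Rik, which overlaps Meis2, stood at 136 and 109 CPM against 32.6 and 35.7 CPM. Elp4, which overlaps Pax6, stood at 218 and 231 CPM against 162 and 190 CPM. Its UMIs came to 38.2% and 30.4% of the UMIs of Pax6. Since strand use is not known here, reads of these partners cannot be told apart from reads of the members.

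Other factors of amacrine development and subtype were taken from a list of 54 genes. Of these, 35 were at 10 CPM or more in amacrine nuclei, 3 were higher by 2-fold or more in Tet tcKO and 1 was lower, beside the 6.44% of genes in each direction given above. The median log2 ratio of the 35 was -0.01. The 3 were Lhx2 (5 and 49 UMIs, log2 1.22, -0.10 to 2.91), Rax (11 and 103 UMIs, log2 1.16, 0.26 to 2.21) and Etv1 (0 and 26 UMIs). For Etv1 the log2 ratio was 1.05 with the 0 set to a floor of 3 counts, and its interval starts at 0.65 and has no upper end. Lhx2 and Rax are homeodomain factors of retinal progenitors and Müller glia, and in rods and cones they stood at 17.3 and 32.1 CPM and at 117 and 200.4 CPM. All 3 were lower in amacrine nuclei than in rods and cones of the same library. Nfib, a nuclear factor I gene of late progenitors and glia, was the lower one, at 78.8 CPM (44 UMIs) and 31.2 CPM (73 UMIs), log2 -1.34 (-1.90 to -0.76). Its relatives Nfia (-0.78, -1.18 to -0.37) and Nfix (-0.89, -1.49 to -0.26) were lower by less than 2-fold, and were named after their values were seen. In both libraries Nfib and Nfia were lower in amacrine nuclei than in rods and cones, where they stood at 142 and 116 CPM and at 168 and 141 CPM. Nfix was lower there than in rods and cones in Tet tcKO only. Rorb, Zfhx3, Tcf4, Meis1 and Zfhx4 were among the 6 listed genes with the highest CPM. Meis1, a relative of Meis2, stood at 243 and 363 CPM (log2 0.58, 0.31 to 0.85) and the nuclear receptor gene Rorb at 614 and 835 CPM (log2 0.44, 0.28 to 0.61). The factors that act earlier in the amacrine pathway, Ptf1a and Foxn4, had 0 UMIs in amacrine nuclei of either library.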

How the data were processed

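Single-nucleus RNA-seq of whole retinas was deposited as a table of UMI counts per gene and nucleus for each genotype. The authors ran pipseeker 3.3.0 against GRCm39, corrected for ambient RNA with CellBender at a cell probability of 0.99, and required more than 500 and fewer than 10000 transcripts per nucleus, with less than 20% of them mitochondrial. Cell types and clusters are the authors' annotation. The deposited size factor is a ratio and the mitochondrial percent is the authors' own, and neither entered a level. The authors' average signal per gene equalled the mean of counts per 10000 recomputed from the matrices in 32227 of 32227 genes. It was not used further, and the sources used here do not name the gene annotation behind the counts.

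UMIs were summed over nuclei and divided by the sum of all genes (CPM). Intervals are exact: Poisson for a level, conditional binomial for a ratio and Clopper-Pearson for a share, at 95%. For ratios, 0 was replaced by 3 counts per library as a floor. Ratios are left out if neither count exceeded 3 or if the floor gave no bound. Differences were called at 2-fold, among genes reaching 10 CPM in either library (for single clusters, genes with 50 UMIs over both libraries). Genotypes were compared within a class only if foreign markers outnumbered its own in the 10 leading genes of none of its clusters, which held for amacrine, horizontal, ganglion and Müller nuclei. The check was weak, since 4 of 5 amacrine and 3 of 3 Müller clusters had no marker of any class among these genes. Rods and cones did not meet this and were pooled, with the values given as a description (cones alone were added after the data were seen). Bipolar levels, which did not meet it, and Müller levels, by choice, are set side by side only. No doublet caller was run, and the nuclei with the most UMIs were left out as an alternative. Genes named besides the members were the 3 most alike of each, listed factors past 2-fold and the 6 highest, subtype genes of amacrine clusters and the targeted genes. The members and lists were chosen with earlier results of these data known. Some genes that these rules name are not reported here. Promoter letters come from RefSeq (GRCm38.p6). The intervals and the scaling were run on simulated independent Poisson counts, and the thinning on simulated draws. Such counts lack the clumping of UMIs in single nuclei, so they do not test the intervals against it. Values were computed with Python 3.11.15, numpy 2.4.6, scipy 1.17.1 and pandas 2.3.3, and drawn with matplotlib 3.10.9.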

Additional observations from a re-analysis of the deposited data

How the results depend on the processing

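Of 106 log2 ratios of single members in amacrine nuclei under 12 alternatives, 91 stayed within the interval of the reported value and 101 kept its sign. Of 72 over all nuclei under 8 alternatives, 50 and 62 did. The median of the members in amacrine nuclei, 0.30, became -0.079 when a gene counted at most once in a nucleus, and the members past 2-fold became 2 (Tfap2c and Barhl2, of the 7 with a value) with the level of rods and cones subtracted. The share of all genes past 2-fold there, 12.9% in both directions together, was 6.35% at a minimum of 50 CPM. Over all nuclei the median, 0.24, became 0.14 under TMM, 0.11 under median of ratios, 0.10 when a gene counted once in a nucleus and 0.063 with Cre- class shares in both libraries. With each gene counted once, 1 member (Lhx9) instead of 0 was past 2-fold. The share of all genes past 2-fold over all nuclei, 5.66%, was 10.4% at a minimum of 1 CPM. The cause of these shifts was not tested. Barhl2 in amacrine nuclei ranged from 0.25 to 1.51, Ebf1 from -0.89 to -0.098 and Lhx9 from -0.14 to 0.64, and Meis2 from -0.17 to 0.54. Subtraction of the photoreceptor level and the omission of cluster 12 were chosen after seeing the data. Of the shares of nuclei with a UMI, 17 of 18 left the thinned interval when not thinned. No paired analysis was possible because each genotype had 1 library, and for the same reason no library could be left out. Tfap2c, Barhl2 and Lhx9 are limited by depth.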
